A study of Mus musculus with 536 samples.

Results

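The blood transcriptome of 17 mice drawn 6 hr after whole-body exposure to 0, 150 or 600 cGy of gamma rays, with no other agent, is described here. They are 17 of the 536 samples of the series and were picked by their titles, which name the dose, the absence of an agent, the hour and a mouse number. The titles hold 6 mice at 0 cGy (numbers 1, 2, 3, 8, 9 and 10), 6 at 150 cGy (1, 4, 5, 6, 7 and 8) and 5 at 600 cGy (1, 3, 4, 5 and 7). All were C57BL/6, an inbred black mouse strain, and their sex is given as unknown. Per the labels' protocols the mice of the study were 10 to 12 weeks old and of both sexes, a Cs137 source delivered 480 cGy/min, and blood came from a terminal cardiac puncture, so each value is from a different mouse. The 17 mice belong to a set of 50 that also held 16 mice given GCSF (granulocyte colony-stimulating factor, the cytokine that drives neutrophil production) and 17 given LPS (lipopolysaccharide, a bacterial wall product that provokes inflammation). The comparisons answer how blood of otherwise untreated mice differed 6 hr after each dose. The array numbers in the titles run consecutively within each dose group, and the labels name no batch.

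Ionizing radiation breaks DNA and thereby stabilizes p53, a transcription factor that switches on genes of cell cycle arrest, repair and death. Circulating B cells are among the most radiosensitive cells of the body, T cells and NK cells are less so, and neutrophils, which are short-lived and do not divide, can be released from marrow stores within hours. In whole blood a transcript can therefore move because cells of a type became fewer or more numerous or because each cell holds less or more of it. These alternatives cannot be told apart in a bulk sample, and this holds for every cell type marker below.

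RNA was collected in a fixative, depleted of globin transcripts and measured on an Affymetrix oligonucleotide array with 22690 probe sets, of which 20380 carry 1 gene symbol and give 12393 genes. Values are log2 signals, so a log2 difference of 1 is a 2-fold change. The median signal of the 17 arrays lay between 5.70 and 5.81, so the arrays share a scale, and their small number limits the precision. The labelled tissue was borne out by the erythroid gene Alas2, at 14.11 to 14.48 in all 17 mice. Xist, a transcript of the inactive X chromosome, lay between 11.28 and 12.49 and the Y-linked genes Uty, Kdm5d and Eif2s3y between 3.002 and 4.72 in all 17. High Xist with low Y-linked signal is the pattern of females, and no mouse departed from it. Xist differed by -0.40 ± 0.15 (adjusted p = 0.15) [-0.56 ± 0.14, adjusted p = 0.0057] at 150 cGy and -0.51 ± 0.16 [-0.67 ± 0.15] at 600 cGy. Muscle markers, which a cardiac puncture could carry along, averaged 4.49 to 4.86, below the array medians, and lung epithelial markers 5.45 to 5.85, about at them. Hepatocyte markers varied more: their mean level ran from 4.83 to 7.51 in 0 cGy mice 1, 2, 3, 8 and 9, was 10.39 in mouse 10, and ran from 4.90 to 11.67 at 150 cGy and from 5.02 to 9.53 at 600 cGy. Leaving out 1 mouse in turn ended the call at 600 cGy for Xist without any 1 of 9 mice (largest adjusted p = 0.14).

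One 0 cGy library lay nearer to the irradiated mice than to its own group. The library labelled 0 cGy mouse 10 lay 0.63 from the mean of the other 0 cGy mice, taken as the SD over genes of the log2 difference, but 0.37 from the 150 cGy mean and 0.41 from the 600 cGy mean. The other 0 cGy mice lay 0.25 to 0.48 from the mean of their own group. Some irradiated mice were also nearer to another group by this measure. The 150 cGy mice 4, 5 and 8 lay 0.30, 0.29 and 0.28 from the 600 cGy mean but 0.36, 0.34 and 0.33 from their own. Mouse 4 of these lay 0.34 from the 0 cGy mean. For 600 cGy mouse 1 the 150 cGy mean was at 0.31 and its own at 0.38. All genes enter the distance, hepatocyte genes included, whose mean level in 0 cGy mouse 10 was 10.39. In a separate dose-time experiment of the series 2936 genes were higher and 2812 lower at 600 cGy at an adjusted p under 0.05 in limma. Mouse 10 was above all the other 0 cGy mice in 845 of the former (28.8%) and below them in 184 (6.27%). It was below them in 1588 of the latter (56.5%) and above them in 56 (1.99%). The share of all genes in which mouse 10 lay outside the other 0 cGy mice was not counted. These counts and those that follow therefore have no background. Among genes that changed there by more than 1 on the log2 scale, mouse 10 was above the other 0 cGy mice in 169 of 178 higher genes and below them in 1. It was below them in 736 of 1115 lower genes and above them in 12. No condition is inferred for that library, and below the 0 cGy mice means mice 1, 2, 3, 8 and 9 wherever mouse 10 is set apart. Each log2 difference from 0 cGy is given as its estimate ± SE with all mice, followed in square brackets by the same without mouse 10; adjusted p-values, from limma with Benjamini-Hochberg adjustment, are added where the fits made different calls. Among the irradiated mice, 150 cGy mice 1 and 7 lay farthest from their own group, at 0.58 and 0.46, and mouse 1 also had the highest hepatocyte level.

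**Figure D1:**
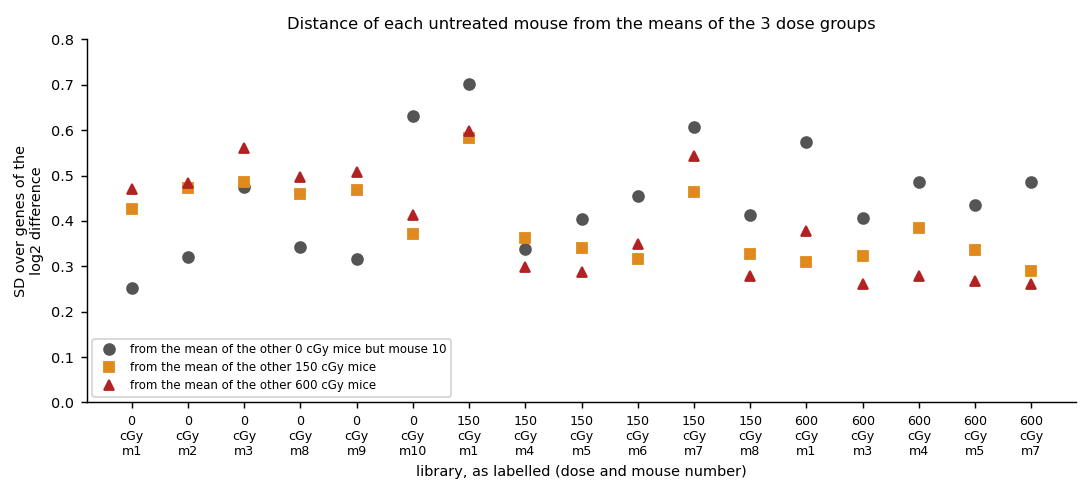
Distance of each of the 17 libraries (x axis, dose and mouse number as labelled) from the mean of the 0, 150 and 600 cGy mice, as the SD over genes of the log2 difference (y axis). The library labelled 0 cGy mouse 10 sits at 0.63 from the other 0 cGy mice and at 0.37 from the 150 cGy mean, and 150 cGy mice 1 and 7 stand above the rest of their group.

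Both doses changed many transcripts. Against 0 cGy, limma called 343 genes higher and 132 lower at 150 cGy (3.83% of the 12393 tested at a Benjamini-Hochberg adjusted p under 0.05), and 683 higher and 231 lower at 600 cGy (7.38%). Without mouse 10 the counts were 715 higher and 725 lower at 150 cGy (11.6%) and 989 and 675 at 600 cGy (13.4%). Of the 475 genes called at 150 cGy with all mice, 473 were also called without mouse 10, as were 911 of the 914 called at 600 cGy, and none changed sign. The lower calls gained most from leaving that library out. Other mice mattered too for 150 cGy: its count was 202 without 0 cGy mouse 2, 253 without 150 cGy mouse 6, 255 without 0 cGy mouse 3, 262 without 150 cGy mouse 7, 267 without 0 cGy mouse 1 and 300 without 0 cGy mouse 9. The main fit took its error from all 50 arrays of the set, GCSF and LPS mice included. Fitted on the 17 arrays alone, the counts were 10 and 589, and on these arrays without mouse 10 they were 1272 and 1540.

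The genes with the largest folds were the following. At 600 cGy the 10 largest rises were the granule and acute-phase gene Lcn2, the neutrophil genes Lrg1, Il1r2 and Mmp8, the p53 targets Cdkn1a and Psrc1, the itaconate-forming enzyme Acod1, the arginase Arg2, the forkhead factor Foxd4 and the protease Asprv1. Of these Lcn2, Lrg1, Il1r2, Arg2, Foxd4, Cdkn1a and Psrc1 were also among the 10 largest rises at 150 cGy, with Socs3, Slc40a1 and Fpr2 completing that list. The largest falls included B cell genes at both doses: Cr2, Fcer2a, Vpreb3 and Fcrl1 in both lists, Cd72, Cd79a and the immunoglobulin segments Ighv14-2 and Igkv6-14 at 600 cGy, and Tnfrsf13c at 150 cGy. Crisp3, a secreted cysteine-rich protein, changed by -1.90 ± 0.30 [-2.35 ± 0.23] at 150 cGy and by -2.32 ± 0.32 [-2.77 ± 0.24] at 600 cGy. Foxd4 rose by 1.95 ± 0.34 [2.48 ± 0.25] and 2.82 ± 0.36 [3.35 ± 0.26], and Arg2 by 2.18 ± 0.35 [2.63 ± 0.29] and 2.65 ± 0.36 [3.10 ± 0.30].

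**Figure D2:**
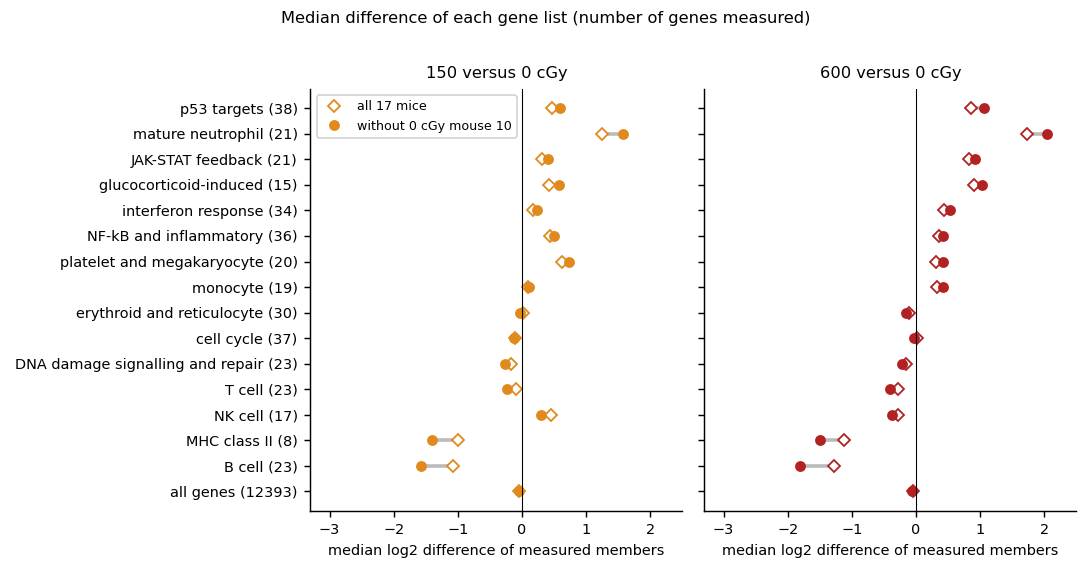
Median log2 difference of the measured members of 15 gene lists and of all genes (x axis) at 150 and 600 cGy against 0 cGy, with all 17 mice (open) and without 0 cGy mouse 10 (filled). The mature neutrophil list lies farthest to the right and the B cell and MHC class II lists farthest to the left at both doses, while the median of all genes stays near 0.

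Genes that p53 activates rose at both doses. Of 38 measured members, 16 rose and 1 fell at 150 cGy, against 2.77% and 1.07% of all genes, with a median log2 difference of 0.47 beside -0.04 for all genes. At 600 cGy 23 rose and 0 fell (background 5.51% and 1.86%), with a median of 0.86 beside -0.05. Without mouse 10 the counts were 21 and 1 at 150 cGy (background 5.77% and 5.85%) and 25 and 1 at 600 cGy (background 7.98% and 5.45%), and the medians 0.59 and 1.07.

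Cdkn1a, which encodes the cyclin-dependent kinase inhibitor p21 and halts the cell cycle, had the largest difference of the list at 600 cGy. Values are listed here and below in the order of mice 1, 2, 3, 8 and 9 at 0 cGy and of mice 1, 3, 4, 5 and 7 at 600 cGy. Cdkn1a stood at 7.03, 7.37, 7.47, 7.47 and 7.09 on the log2 scale in the 0 cGy mice and at 10.47 in mouse 10. The 150 cGy mice ran from 9.38 to 10.12 (median 9.78), and the 600 cGy mice held 10.54, 10.15, 10.97, 10.92 and 10.95. Every irradiated mouse was above every 0 cGy mouse, and mouse 10 lay among the irradiated ones. Such a separation, mouse 10 apart, held upward for 3.64% of all genes at 150 cGy and 7.45% at 600 cGy, and downward for 2.69% and 4.11%. The difference was 1.97 ± 0.30 (adjusted p = 6.7e-05) [2.50 ± 0.18, adjusted p = 5.4e-14] at 150 cGy and 2.89 ± 0.32 (adjusted p = 4.1e-08) [3.42 ± 0.19, adjusted p = 3.1e-18] at 600 cGy. Between the doses it was 0.92 ± 0.32 (adjusted p = 0.3) with all mice and 0.92 ± 0.18 (adjusted p = 0.0085) without mouse 10, the same estimate with a smaller error.

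Ei24, a membrane protein gene induced by p53 in dying cells, was higher at both doses too, but its 150 and 600 cGy mice overlapped. The log2 levels of Ei24 were 8.16, 8.19, 8.03, 8.15 and 8.20 at 0 cGy, against 9.76 in mouse 10. At 150 cGy they spanned 8.94 to 9.71 with a median of 9.49, and at 600 cGy they were 9.97, 9.46, 10.22, 10.34 and 10.24. The 0 cGy mice agreed closely, and the 150 cGy mice lay between them and most 600 cGy mice. Its differences were 0.997 ± 0.17 [1.27 ± 0.12] and 1.63 ± 0.18 [1.90 ± 0.13]. Between the doses it differed by 0.63 ± 0.12 (adjusted p = 0.0073) without mouse 10 and did not pass with all mice.

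The promoter windows of these members are printed because p53 is known to act at such sites. A script searched the 250 bases before each RefSeq start site (GRCm38.p6) for the p53 response half-site, a 10-base palindrome, on both strands with overlaps allowed. It found a match in 9 of the 38 windows of the 29 list members that had one (23.7%), beside 7.13% of all 32851 windows. Windows of Cdkn1a, Ei24, Polk, Ccng1, Mdm2, Aen, Rps27l, Sesn1 and Gadd45a held matches. Cdkn1a has 2 start sites in the table, and the window of the one with matches is chr17:29090729-29090978 on the plus strand, with matches starting at -73 and -51 relative to the start site, and the Ei24 window is chr9:36797335-36797584 on the minus strand, with a match at -10. Capitals mark the matched bases. A match describes the letters and is not evidence of binding here.
Cdkn1a: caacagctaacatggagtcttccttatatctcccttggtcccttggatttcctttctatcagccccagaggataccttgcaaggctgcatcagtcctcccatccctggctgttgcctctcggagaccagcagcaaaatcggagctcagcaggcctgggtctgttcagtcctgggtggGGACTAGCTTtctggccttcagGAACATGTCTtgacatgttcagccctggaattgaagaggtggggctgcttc
Ei24: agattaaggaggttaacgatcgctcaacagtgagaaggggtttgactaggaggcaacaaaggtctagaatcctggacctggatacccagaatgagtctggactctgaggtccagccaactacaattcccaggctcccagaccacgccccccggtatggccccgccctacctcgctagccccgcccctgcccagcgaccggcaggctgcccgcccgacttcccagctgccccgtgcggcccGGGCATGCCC

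The other p53 targets are given by role. Among arrest and feedback genes, Ccng1, a cyclin that feeds back on p53, rose by 1.19 ± 0.23 [1.49 ± 0.20] and 1.62 ± 0.25 [1.92 ± 0.21] at 150 and 600 cGy. Psrc1, a microtubule-binding protein gene, rose by 1.94 ± 0.28 [2.35 ± 0.21] and 2.62 ± 0.29 [3.04 ± 0.22]. Mdm2, the ligase that degrades p53, differed by 0.47 ± 0.20 (adjusted p = 0.19) [0.63 ± 0.19, adjusted p = 0.022] at 150 cGy and rose by 1.15 ± 0.21 (adjusted p = 1.1e-04) [1.31 ± 0.20, adjusted p = 2.8e-06] at 600 cGy. Plk2, a stress-responsive kinase, differed by 0.33 ± 0.14 (adjusted p = 0.22) [0.50 ± 0.13, adjusted p = 0.0053] at 150 cGy and rose by 0.88 ± 0.15 [1.05 ± 0.13] at 600 cGy. Zmat3, an RNA-binding protein gene, rose by 0.92 ± 0.16 [1.17 ± 0.12] and 1.46 ± 0.17 [1.71 ± 0.12]. Polk, a DNA polymerase that copies past lesions, rose by 0.96 ± 0.17 [1.20 ± 0.13] and 1.51 ± 0.17 [1.76 ± 0.13]. Without mouse 10 all of these passed the test at both doses.

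Among death genes, Bbc3, whose product PUMA triggers mitochondrial death, rose by 1.13 ± 0.17 [1.32 ± 0.15] and 1.52 ± 0.18 [1.71 ± 0.16]. Phlda3, an Akt inhibitor gene, rose by 1.46 ± 0.23 [1.85 ± 0.16] and 1.98 ± 0.25 [2.37 ± 0.16]. Fas, a death receptor gene, rose by 0.69 ± 0.19 [0.86 ± 0.18] and 1.19 ± 0.20 [1.36 ± 0.19]. Apaf1, the scaffold of the apoptosome, differed by 0.39 ± 0.20 (adjusted p = 0.3) [0.54 ± 0.19, adjusted p = 0.059] at 150 cGy and rose by 1.16 ± 0.20 (adjusted p = 9.4e-05) [1.31 ± 0.20, adjusted p = 3.5e-06] at 600 cGy. Of the members that passed at neither dose with all mice, Gadd45a differed by 0.12 ± 0.33 [0.06 ± 0.34] and Ddb2, a damage recognition gene, by -0.14 ± 0.22 [-0.28 ± 0.22] at 600 cGy. Sesn1, a stress-induced inhibitor of growth signalling, went the other way: it changed by -0.69 ± 0.17 (adjusted p = 0.015) [-0.82 ± 0.17, adjusted p = 8.7e-04] at 150 cGy, and at 600 cGy its difference was -0.40 ± 0.18 (adjusted p = 0.21) [-0.52 ± 0.18, adjusted p = 0.0471]. With single mice left out, the call was lost at 150 cGy for Fas without any 1 of 7 mice (largest adjusted p = 0.1) and Sesn1 without 0 cGy mouse 2 or 150 cGy mouse 7 (largest adjusted p = 0.085).

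The mean of the p53 targets, taken relative to the median 0 cGy mouse, ran from -0.13 to -0.02 in the 0 cGy mice, from 0.34 to 0.81 at 150 cGy and from 0.67 to 1.07 at 600 cGy. Mouse 10 was at 0.79, within the span of both irradiated groups. The irradiated groups overlapped each other and neither reached the 0 cGy mice.

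**Figure D3:**
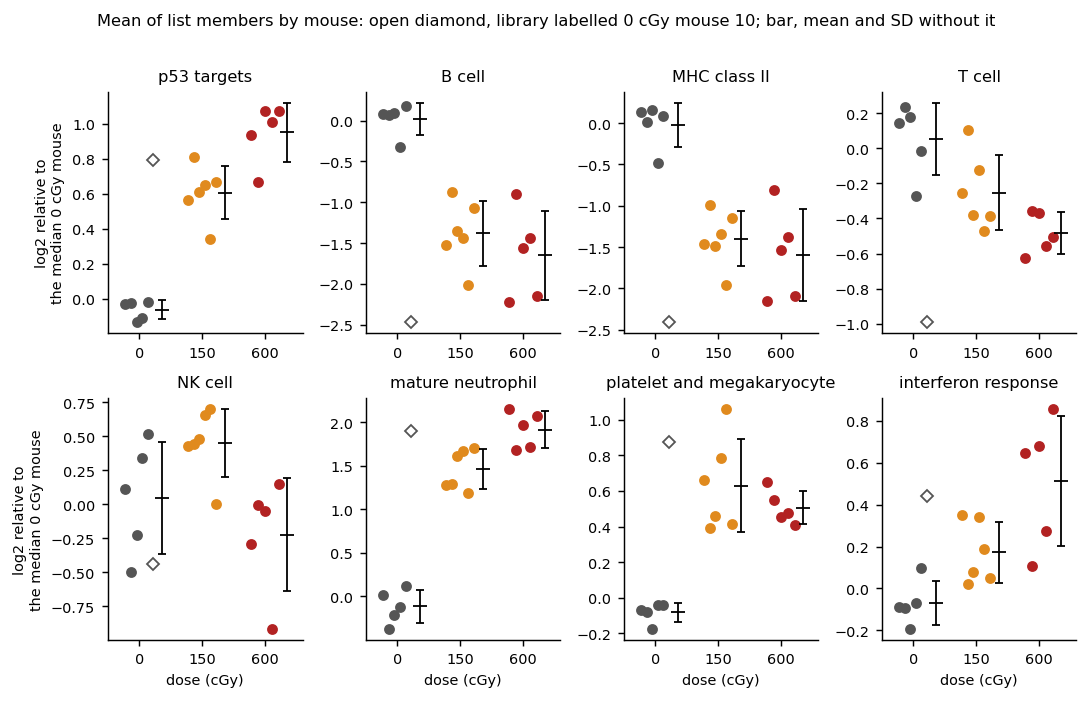
Mean over the members of 8 gene lists in each mouse (y axis, log2 relative to the median 0 cGy mouse) by dose (x axis, cGy). Points are mice, bars the mean and SD without 0 cGy mouse 10, which is the open diamond; it sits with the irradiated mice for the p53, neutrophil and platelet lists and below every irradiated mouse for the B, MHC class II and T cell lists.

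B cell genes fell. Of 23 measured markers none rose, and 7 fell at 150 cGy and 15 at 600 cGy (background 1.07% and 1.86%), with medians of -1.08 and -1.27. Without mouse 10, 20 fell at 150 cGy and 19 at 600 cGy (background 5.85% and 5.45%), with medians of -1.58 and -1.80. So at 150 cGy the call on most B cell genes turned on that library, which held the lowest B cell level of all 17 mice (-2.47 relative to the median 0 cGy mouse). The 0 cGy mice lay between -0.32 and 0.18, the 150 cGy mice between -2.01 and -0.87 and the 600 cGy mice between -2.22 and -0.89.

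Receptors of mature B cells led the list. For Cr2 the 0 cGy mice gave log2 levels of 6.87, 6.99, 6.93, 6.13 and 6.74, and mouse 10 gave 3.94. Levels ran from 4.41 through a median of 4.75 to 5.06 at 150 cGy and were 3.78, 4.37, 3.76, 4.11 and 3.73 at 600 cGy. Cr2, the complement receptor CD21, was lower in every irradiated mouse than in every 0 cGy mouse, and mouse 10 was lower than every 150 cGy mouse. It changed by -1.51 ± 0.28 (adjusted p = 8.8e-04) [-1.97 ± 0.19, adjusted p = 2.0e-10] at 150 cGy and by -2.31 ± 0.30 (adjusted p = 5.1e-07) [-2.78 ± 0.20, adjusted p = 1.2e-14] at 600 cGy, and the doses differed by -0.81 ± 0.19 (adjusted p = 0.039) without mouse 10.

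In the 0 cGy mice Fcer2a read 10.38, 10.03, 10.20, 8.64 and 9.99 on the log2 scale, with 6.45 in mouse 10. Its lowest, median and highest 150 cGy levels were 7.37, 7.66 and 8.77, and its 600 cGy levels were 6.21, 7.50, 6.67, 6.54 and 6.33. The 150 cGy mice reached the lowest 0 cGy mouse, mouse 8, and the 600 cGy mice did not. Fcer2a encodes CD23, the low-affinity IgE receptor of mature B cells. Its differences were -1.38 ± 0.35 (adjusted p = 0.016) [-1.95 ± 0.25, adjusted p = 1.3e-07] and -2.63 ± 0.37 (adjusted p = 2.1e-06) [-3.20 ± 0.26, adjusted p = 3.0e-13]. Between the doses it differed by -1.25 ± 0.37 (adjusted p = 0.19), or -1.25 ± 0.25 (adjusted p = 0.0084) without mouse 10. The test no longer passed at 150 cGy for Fcer2a without 0 cGy mouse 1, 2, 3 or 9 (largest adjusted p = 0.072).

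Vpreb3, a chaperone of the B cell receptor, differed by -1.79 ± 0.32 [-2.31 ± 0.22] and -2.24 ± 0.34 [-2.75 ± 0.23]. Cd72, an inhibitory coreceptor, differed by -1.17 ± 0.29 [-1.62 ± 0.21] and -1.90 ± 0.31 [-2.35 ± 0.22]. For Tnfrsf13c, the survival receptor for BAFF, the differences were -1.49 ± 0.35 [-2.04 ± 0.25] and -1.79 ± 0.37 [-2.35 ± 0.26]. All of these passed at both doses. The signalling chain Cd79a of the B cell receptor differed by -1.36 ± 0.43 (adjusted p = 0.066) [-2.06 ± 0.30, adjusted p = 2.0e-06] and -1.89 ± 0.45 (adjusted p = 0.0045) [-2.59 ± 0.31, adjusted p = 1.7e-08]. Ms4a1, which encodes CD20, was at -0.93 ± 0.40 (adjusted p = 0.22) [-1.44 ± 0.34, adjusted p = 0.0028] and -1.08 ± 0.42 (adjusted p = 0.12) [-1.60 ± 0.36, adjusted p = 0.0011], so that it passed only without mouse 10. Ms4a1 stood at 11.92, 11.90, 11.65, 12.01 and 12.15 on the log2 scale in the 0 cGy mice and at 8.82 in mouse 10. The 150 cGy mice ran from 9.13 to 11.29 (median 10.58), and the 600 cGy mice held 9.46, 11.49, 10.56, 10.61 and 9.50. The irradiated and 0 cGy mice did not overlap for Ms4a1, and mouse 10 was the lowest of all. The call did not last at 150 cGy for Cd72 without 0 cGy mouse 2, 3 or 9 (largest adjusted p = 0.061).

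The promoters of Vpreb3 and Blnk, a B cell adaptor gene, are shown because they alone among the B cell windows held the octamer ATTTGCAT, the site of the B cell factors of the POU family. It was found on either strand in 2 of 20 windows (10.0%) beside 1.60% of all windows. The Vpreb3 window is chr10:75948050-75948299 on the plus strand with the match at -45, and the Blnk window chr19:40994222-40994471 on the minus strand with the match at -130; capitals mark the octamer. Blnk differed by -1.19 ± 0.37 (adjusted p = 0.0544) [-1.58 ± 0.34, adjusted p = 9.0e-04] and -0.83 ± 0.39 (adjusted p = 0.21) [-1.22 ± 0.35, adjusted p = 0.014].
Vpreb3: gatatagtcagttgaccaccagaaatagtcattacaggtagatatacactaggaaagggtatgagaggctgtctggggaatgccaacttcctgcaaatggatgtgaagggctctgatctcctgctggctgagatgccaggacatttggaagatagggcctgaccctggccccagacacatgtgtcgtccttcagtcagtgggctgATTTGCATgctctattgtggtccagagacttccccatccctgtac
Blnk: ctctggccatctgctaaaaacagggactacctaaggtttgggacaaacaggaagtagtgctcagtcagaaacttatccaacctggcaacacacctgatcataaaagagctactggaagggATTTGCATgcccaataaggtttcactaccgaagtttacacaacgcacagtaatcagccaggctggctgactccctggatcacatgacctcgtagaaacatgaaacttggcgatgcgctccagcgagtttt

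Genes of MHC class II, through which B cells and other presenting cells show peptides to T cells, fell alongside. With all mice 4 of 8 fell at 150 cGy and 6 at 600 cGy (background 1.07% and 1.86%). Without mouse 10 all 8 fell at both doses (background 5.85% and 5.45%), with medians of -1.40 and -1.49. Ciita, the master activator of the family, changed by -1.19 ± 0.24 [-1.60 ± 0.15] and -1.58 ± 0.25 [-1.99 ± 0.15]. H2-Oa, which tunes peptide loading in B cells, changed by -1.06 ± 0.31 [-1.58 ± 0.19] and -1.73 ± 0.32 [-2.25 ± 0.20]. H2-Ab1, a chain of the peptide-binding dimer, changed by -1.11 ± 0.32 [-1.53 ± 0.26] and -1.23 ± 0.33 [-1.65 ± 0.27]. Of 8 plasma cell genes none passed by limma with all mice (2 and 2 at an unadjusted p under 0.05); the light chain segment Iglv1 differed by -1.01 ± 0.45 (adjusted p = 0.23) [-1.51 ± 0.41, adjusted p = 0.01] and -0.95 ± 0.47 (adjusted p = 0.26) [-1.44 ± 0.43, adjusted p = 0.017]. Irf4, a factor of activated B and plasma cells, differed by -0.97 ± 0.30 (adjusted p = 0.0524) [-1.29 ± 0.28, adjusted p = 9.1e-04] and -0.85 ± 0.31 (adjusted p = 0.091) [-1.16 ± 0.29, adjusted p = 0.0034]. A call was lost at 150 cGy for H2-Oa without any 1 of 9 mice (largest adjusted p = 0.12) and H2-Ab1 without any 1 of 8 mice (largest adjusted p = 0.12). Leaving out 1 mouse in turn ended the call at 600 cGy for H2-Ab1 without 0 cGy mouse 9 or 600 cGy mouse 1 (largest adjusted p = 0.064).

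**Figure D4:**
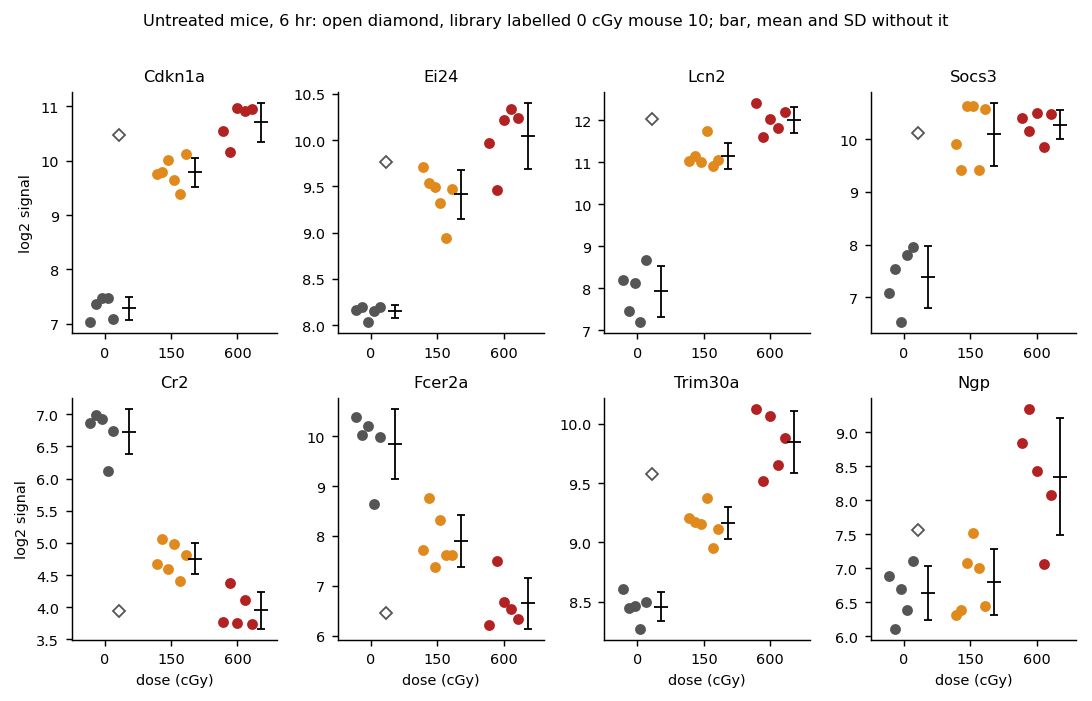
log2 signal (y axis) of 8 genes in each mouse by dose (x axis, cGy); points are mice, bars the mean and SD without 0 cGy mouse 10 (open diamond). Cdkn1a, Ei24, Lcn2 and Socs3 are higher and Cr2 lower in every irradiated mouse than in the 0 cGy mice, Trim30a is highest at 600 cGy, and Ngp is raised in 600 cGy mice but not at 150 cGy.

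Of 23 T cell markers 1 fell at 150 cGy and 2 at 600 cGy (background 1.07% and 1.86%), and without mouse 10 2 and 9 (background 5.85% and 5.45%). None rose in either fit. The medians at 600 cGy were -0.28 with all mice and -0.41 without mouse 10. Ccr7, the receptor that guides naive lymphocytes to lymph nodes, changed by -0.87 ± 0.23 [-1.20 ± 0.18] and -0.94 ± 0.24 [-1.28 ± 0.19], and B cells carry it as well. Thy1, a surface glycoprotein of mouse T cells, was at -0.40 ± 0.38 (adjusted p = 0.67) [-0.82 ± 0.35, adjusted p = 0.13] at 150 cGy and changed by -1.36 ± 0.40 (adjusted p = 0.028) [-1.78 ± 0.36, adjusted p = 3.7e-04] at 600 cGy. The coreceptor chain Cd8b1 differed by -1.10 ± 0.38 (adjusted p = 0.068) [-1.46 ± 0.36, adjusted p = 0.003] at 600 cGy. Cd3e, an invariant chain of the T cell receptor, differed by -0.02 ± 0.22 [-0.14 ± 0.22] at 150 cGy and -0.10 ± 0.23 [-0.22 ± 0.23] at 600 cGy and did not pass in either fit. With single mice left out, the call was lost at 150 cGy for Ccr7 without any 1 of 6 mice (largest adjusted p = 0.1). The test no longer passed at 600 cGy for Thy1 without any 1 of 7 mice (largest adjusted p = 0.089).

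No NK cell gene passed at either dose by limma in the fit with all mice, and 6 and 2 of 17 were at an unadjusted p under 0.05. Over the 17 markers the median difference was 0.46 at 150 cGy and -0.28 at 600 cGy, and -0.73 between the doses, beside 0.00 for all genes. The list level ran from -0.50 to 0.51 in the 0 cGy mice, from 0.00 to 0.70 at 150 cGy and from -0.91 to 0.15 at 600 cGy. The span at 0 cGy thus held 8 of the 11 irradiated mice. Klrg1, an inhibitory receptor, was at -1.28 ± 0.37 (adjusted p = 0.17) between the doses and Gzma, a granule protease of killer cells, at -1.03 ± 0.37 (adjusted p = 0.31).

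Neutrophil genes rose at both doses and by the largest median of any list shown. Of 21 markers of mature neutrophils 17 rose at 150 cGy and 19 at 600 cGy (background 2.77% and 5.51%), none fell, and the medians were 1.25 and 1.72. Without mouse 10 the counts were 18 and 19 (background 5.77% and 7.98%) and the medians 1.58 and 2.04. The list level was -0.37 to 0.12 in the 0 cGy mice, 1.19 to 1.71 at 150 cGy, 1.68 to 2.15 at 600 cGy and 1.91 in mouse 10.

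The log2 levels of Lcn2 were 8.20, 7.46, 8.12, 7.19 and 8.69 at 0 cGy, against 12.04 in mouse 10. At 150 cGy they spanned 10.90 to 11.75 with a median of 11.04, and at 600 cGy they were 12.41, 11.61, 12.02, 11.82 and 12.19. Lcn2, an iron-sequestering protein of neutrophil granules that liver and other tissues also make in the acute phase, was higher in every irradiated mouse than in the 0 cGy mice. It rose by 2.53 ± 0.37 (adjusted p = 4.6e-05) [3.21 ± 0.20, adjusted p = 9.3e-16] and 3.39 ± 0.39 (adjusted p = 7.9e-08) [4.08 ± 0.21, adjusted p = 4.8e-19]. Hepatocyte markers differed between mice, and with their level as a covariate the 600 cGy difference of Lcn2 was 3.40. That of Lrg1, a secreted glycoprotein of neutrophils and liver, was 2.97 beside 2.96 without the covariate. With mouse 10 included, the hepatocyte level ran from 4.83 to 10.39 at 0 cGy and from 5.02 to 9.53 at 600 cGy. The 2 groups differed little in it on average, so the covariate could hardly move these estimates. A liver share in these 2 genes was not tested.

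For Lrg1 the 0 cGy mice gave log2 levels of 8.78, 8.53, 9.13, 7.87 and 8.78, and mouse 10 gave 12.55. Levels ran from 11.17 through a median of 11.42 to 12.14 at 150 cGy and were 12.60, 12.07, 12.15, 11.98 and 12.36 at 600 cGy. Its 150 cGy difference was 2.29 ± 0.37 [2.95 ± 0.21] and its 600 cGy difference 2.96 ± 0.38 [3.61 ± 0.22]. Il1r2, the decoy receptor of interleukin 1, rose by 2.10 ± 0.36 [2.69 ± 0.24] and 2.88 ± 0.37 [3.47 ± 0.25]. The chemoattractant receptor Fpr2 rose by 1.86 ± 0.27 [2.26 ± 0.20] and 2.32 ± 0.28 [2.72 ± 0.21] and its relative Cxcr2 by 1.68 ± 0.27 [2.06 ± 0.22] and 2.13 ± 0.28 [2.51 ± 0.23]. Csf3r, the receptor of GCSF, rose by 1.46 ± 0.24 [1.78 ± 0.20] and 1.72 ± 0.25 [2.05 ± 0.21]. Mmp8, a collagenase of neutrophil granules, rose by 1.57 ± 0.39 [2.11 ± 0.32] and 2.60 ± 0.41 [3.15 ± 0.33]. Trem1, an amplifier of inflammation, rose by 1.57 ± 0.30 [2.02 ± 0.23] and 2.27 ± 0.32 [2.71 ± 0.24]. The calgranulin S100a8, an abundant cytosolic protein of neutrophils, changed less, by 0.79 ± 0.16 [1.02 ± 0.13] and 0.91 ± 0.17 [1.13 ± 0.14]. For each gene of this paragraph every irradiated mouse was above every 0 cGy mouse but mouse 10. The call did not last at 150 cGy for Mmp8 without 0 cGy mouse 2 (largest adjusted p = 0.075).

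Granule genes made earlier in neutrophil development behaved apart from one another. Of 12, 1 rose at 150 cGy (Lcn2) and 4 at 600 cGy (background 2.77% and 5.51%). In the 0 cGy mice Ngp read 6.88, 6.11, 6.69, 6.39 and 7.11 on the log2 scale, with 7.56 in mouse 10. Its lowest, median and highest 150 cGy levels were 6.31, 6.73 and 7.52, and its 600 cGy levels were 8.84, 9.34, 8.43, 7.06 and 8.07. Ngp, a granule protein of marrow precursors, differed by 0.00 ± 0.30 [0.15 ± 0.31] at 150 cGy and rose by 1.56 ± 0.32 (adjusted p = 7.2e-04) [1.71 ± 0.33, adjusted p = 1.3e-04] at 600 cGy, although 600 cGy mouse 5 overlapped the other groups. Prtn3, a primary granule protease, was at -0.08 ± 0.36 (adjusted p = 0.95) [0.21 ± 0.36, adjusted p = 0.79] and rose by 1.18 ± 0.38 (adjusted p = 0.0483) [1.46 ± 0.37, adjusted p = 0.0047] at 600 cGy. Anxa1, a cytosolic regulator of inflammation, differed by 0.57 ± 0.32 (adjusted p = 0.38) [0.79 ± 0.32, adjusted p = 0.11] and rose by 1.19 ± 0.33 (adjusted p = 0.018) [1.41 ± 0.33, adjusted p = 0.002]. Other primary granule genes did not pass: Mpo differed by -0.08 ± 0.22 [-0.08 ± 0.23], Elane by -0.15 ± 0.12 [-0.19 ± 0.12] and Ctsg by 0.04 ± 0.16 [0.06 ± 0.16] at 600 cGy. A call was lost at 600 cGy for Prtn3 without any 1 of 10 mice (largest adjusted p = 0.14) and Anxa1 without 0 cGy mouse 3 or 600 cGy mouse 7 (largest adjusted p = 0.074).

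Among 19 monocyte and macrophage genes 1 rose at 150 cGy and 5 at 600 cGy, where 1 fell (background 2.77%, 5.51% and 1.86%). Fcgr4, an Fc receptor of monocytes and neutrophils, rose by 1.30 ± 0.20 [1.60 ± 0.15] and 1.80 ± 0.21 [2.09 ± 0.16]. Cd14, the LPS coreceptor, differed by 0.98 ± 0.34 (adjusted p = 0.093) [1.26 ± 0.33, adjusted p = 0.0073] at 150 cGy and rose by 2.10 ± 0.35 (adjusted p = 5.0e-05) [2.38 ± 0.34, adjusted p = 1.0e-06] at 600 cGy. Itgam, an integrin that neutrophils share, and Cd68, a lysosomal protein, rose at 600 cGy by 1.20 ± 0.24 [1.42 ± 0.22] and 1.12 ± 0.26 [1.35 ± 0.24]. Irf8, a factor of monocyte and B cell development, changed by -0.93 ± 0.26 (adjusted p = 0.018) [-1.22 ± 0.22, adjusted p = 7.8e-05]. Genes more restricted to monocytes did not pass: Csf1r differed by 0.33 ± 0.20 [0.44 ± 0.20], Ccr2 by -0.15 ± 0.32 [-0.23 ± 0.33] and Cx3cr1 by -0.24 ± 0.19 [-0.33 ± 0.20]. Slc40a1, the iron exporter of macrophages, rose by 1.89 ± 0.34 [2.25 ± 0.32] and 2.12 ± 0.36 [2.48 ± 0.33]. Cd5l and Vsig4, markers of tissue macrophages, were at 1.24 ± 0.60 (adjusted p = 0.23) [1.49 ± 0.62, adjusted p = 0.11] and 1.08 ± 0.61 (adjusted p = 0.34) [1.30 ± 0.63, adjusted p = 0.19] at 600 cGy. Leaving out 1 mouse in turn ended the call at 600 cGy for Irf8 without 0 cGy mouse 1, 3 or 9 or 600 cGy mouse 5 (largest adjusted p = 0.064).

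Of 34 interferon-stimulated genes 1 rose at 150 cGy and 11 at 600 cGy (background 2.77% and 5.51%), with medians of 0.17 and 0.43. Without mouse 10 the counts were 5 and 16 (background 5.77% and 7.98%), and none fell in either fit. The list level of the 600 cGy mice ran from 0.10 to 0.85, so its lowest mice overlapped the 150 cGy span of 0.02 to 0.35. Trim30a stood at 8.61, 8.45, 8.46, 8.27 and 8.50 on the log2 scale in the 0 cGy mice and at 9.57 in mouse 10. The 150 cGy mice ran from 8.96 to 9.37 (median 9.17), and the 600 cGy mice held 10.12, 9.51, 10.07, 9.65 and 9.88. The 0, 150 and 600 cGy mice formed 3 steps without overlap for Trim30a, an interferon-induced ubiquitin ligase gene, once mouse 10 was set apart. It rose by 0.52 ± 0.15 (adjusted p = 0.03) [0.71 ± 0.12, adjusted p = 5.3e-05] and 1.20 ± 0.15 (adjusted p = 4.0e-07) [1.39 ± 0.13, adjusted p = 1.5e-11], and the doses differed by 0.68 ± 0.12 (adjusted p = 0.0048) without mouse 10. With single mice left out, the call was lost at 150 cGy for Trim30a without any 1 of 7 mice (largest adjusted p = 0.1).

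Gbp2, a guanylate-binding defence protein gene, was at 0.23 ± 0.17 (adjusted p = 0.53) [0.43 ± 0.15, adjusted p = 0.0499] at 150 cGy and rose by 1.04 ± 0.18 (adjusted p = 5.8e-05) [1.24 ± 0.16, adjusted p = 5.0e-08] at 600 cGy. Without mouse 10 its doses differed by 0.80 ± 0.15 (adjusted p = 0.0048). Ifit3, a cofactor of antiviral RNA-binding proteins, rose by 1.38 ± 0.26 [1.60 ± 0.25] at 600 cGy and the antiviral synthetase Oas2 by 1.24 ± 0.22 [1.49 ± 0.19]; at 150 cGy they were at 0.36 ± 0.24 [0.57 ± 0.24] and 0.60 ± 0.21 (adjusted p = 0.098) [0.85 ± 0.18, adjusted p = 0.001] and did not pass with all mice. Irf9, part of the interferon-activated complex, rose by 0.67 ± 0.14 [0.73 ± 0.15]. Rsad2, Irf7 and Mx2, which interferon also induces, were at 0.03 ± 0.08 [0.04 ± 0.08], -0.10 ± 0.18 [-0.14 ± 0.19] and 0.17 ± 0.12 [0.18 ± 0.12] at 600 cGy and did not pass.

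The promoter windows of Trim30a and Gbp2 hold the core of the interferon-stimulated response element, GAAA and GAAA with 2 bases of any kind between them. Interferon signalling is known to act through it. Searched on both strands, it stood in 14 of 30 windows of the 25 interferon list members that had one (46.7%), beside 2.98% of all windows. The Trim30a window is chr7:104465194-104465443 on the minus strand with the match at -36 and the Gbp2 window chr3:142620413-142620662 on the plus strand with the match at -59; capitals mark the core. Rsad2, which did not pass at either dose, held a match too.
Trim30a: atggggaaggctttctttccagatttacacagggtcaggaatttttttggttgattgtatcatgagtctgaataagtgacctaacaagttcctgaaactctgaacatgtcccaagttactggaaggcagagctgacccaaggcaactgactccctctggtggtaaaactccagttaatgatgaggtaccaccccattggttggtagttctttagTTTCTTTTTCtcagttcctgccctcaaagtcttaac
Gbp2: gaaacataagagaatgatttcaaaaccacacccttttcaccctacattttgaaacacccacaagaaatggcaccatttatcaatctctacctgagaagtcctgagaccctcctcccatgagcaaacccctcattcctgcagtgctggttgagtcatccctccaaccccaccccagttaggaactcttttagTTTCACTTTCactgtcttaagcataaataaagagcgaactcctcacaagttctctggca

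Of 36 inflammatory genes known to respond to NF-kB 8 rose and 1 fell at 150 cGy (background 2.77% and 1.07%), and 13 rose and 1 fell at 600 cGy (background 5.51% and 1.86%). Acod1, which makes the immune metabolite itaconate, rose by 1.70 ± 0.30 [2.18 ± 0.22] and 2.64 ± 0.32 [3.12 ± 0.22]. Il1rn, the natural antagonist of interleukin 1, rose by 1.81 ± 0.27 [2.17 ± 0.23] and 2.03 ± 0.28 [2.38 ± 0.24]. The cytokine gene Il1b rose by 1.51 ± 0.28 [1.82 ± 0.25] and 1.70 ± 0.29 [2.01 ± 0.26]. The adaptor gene Myd88 of the Toll-like receptors rose by 0.83 ± 0.16 [1.04 ± 0.13] and 1.34 ± 0.16 [1.55 ± 0.13]. The fall was Cd40, a costimulatory receptor of B cells, at -0.81 ± 0.20 [-1.03 ± 0.19] and -0.78 ± 0.21 [-1.01 ± 0.19]. Tnf, Il6 and the inhibitor gene Nfkbia did not pass, at 0.21 ± 0.14 [0.24 ± 0.14], 0.29 ± 0.63 [0.29 ± 0.67] and 0.29 ± 0.16 [0.26 ± 0.16] at 600 cGy. The NF-kB site, GGG and CC with 5 bases of any kind between them and searched on both strands, stood in 23 of 34 windows of the list (67.6%), beside 45.8% of all windows. The test no longer passed at 150 cGy for Cd40 without 0 cGy mouse 1 or 2 or 150 cGy mouse 7 (largest adjusted p = 0.057). The call did not last at 600 cGy for Cd40 without 0 cGy mouse 1 or 600 cGy mouse 1 (largest adjusted p = 0.057).

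Of 21 genes of JAK-STAT feedback 7 rose at 150 cGy and 13 at 600 cGy (background 2.77% and 5.51%) and none fell, with medians of 0.31 and 0.83. Without mouse 10 the counts were 10 and 13 (background 5.77% and 7.98%). The log2 levels of Socs3 were 7.09, 7.54, 6.53, 7.81 and 7.95 at 0 cGy, against 10.11 in mouse 10. At 150 cGy they spanned 9.41 to 10.63 with a median of 10.24, and at 600 cGy they were 10.39, 10.16, 10.50, 9.85 and 10.48. For Socs3, the inhibitor that STAT3 induces to end its own signal, every irradiated mouse was above every 0 cGy mouse, and the spans of both doses overlapped. Its differences were 2.25 ± 0.31 (adjusted p = 3.6e-05) [2.71 ± 0.24, adjusted p = 1.2e-11] and 2.44 ± 0.32 (adjusted p = 7.7e-07) [2.90 ± 0.25, adjusted p = 1.6e-12]. Cebpd, a factor of the acute phase, rose by 1.28 ± 0.23 [1.55 ± 0.20] and 1.64 ± 0.24 [1.91 ± 0.21]. Junb, a subunit of the AP-1 factor, rose by 0.99 ± 0.22 [1.18 ± 0.22] and 1.38 ± 0.23 [1.57 ± 0.23]. The kinase gene Pim1 rose by 0.47 ± 0.14 [0.59 ± 0.13] and 0.87 ± 0.14 [0.99 ± 0.14]. Stat3 itself was at 0.63 ± 0.21 (adjusted p = 0.083) [0.83 ± 0.20, adjusted p = 0.0033] and rose by 1.06 ± 0.22 (adjusted p = 8.3e-04) [1.27 ± 0.21, adjusted p = 1.1e-05] at 600 cGy. Cish and Pim2, feedback genes of STAT5, were at 0.12 ± 0.14 [0.14 ± 0.14] and 0.18 ± 0.13 [0.10 ± 0.13] at 600 cGy and did not pass. A call was lost at 150 cGy for Pim1 without any 1 of 9 mice (largest adjusted p = 0.16).

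The STAT site TTCNNNGAA, a palindrome that reads alike on both strands, stood in 2 of 22 windows of the JAK-STAT list (9.09%), beside 7.02% of all windows, a share close to that background. The windows are those of Socs3, chr11:117969367-117969616 on the minus strand with the site at -154, and of Fgl2, a secreted fibrinogen-like protein gene, chr5:21372423-21372672 on the plus strand with the site at -36. They are shown because both genes rose at both doses, Fgl2 by 1.39 ± 0.37 [1.71 ± 0.35] and 1.54 ± 0.39 [1.86 ± 0.37]. Capitals mark the site. Leaving out 1 mouse in turn ended the call at 150 cGy for Fgl2 without 0 cGy mouse 1, 2 or 3 or 150 cGy mouse 6 (largest adjusted p = 0.092).
Socs3: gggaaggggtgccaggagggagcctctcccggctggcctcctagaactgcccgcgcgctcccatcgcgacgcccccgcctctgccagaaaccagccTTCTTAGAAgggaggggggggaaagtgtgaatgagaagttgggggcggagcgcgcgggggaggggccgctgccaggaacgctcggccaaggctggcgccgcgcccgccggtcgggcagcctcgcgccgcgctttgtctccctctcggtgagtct
Fgl2: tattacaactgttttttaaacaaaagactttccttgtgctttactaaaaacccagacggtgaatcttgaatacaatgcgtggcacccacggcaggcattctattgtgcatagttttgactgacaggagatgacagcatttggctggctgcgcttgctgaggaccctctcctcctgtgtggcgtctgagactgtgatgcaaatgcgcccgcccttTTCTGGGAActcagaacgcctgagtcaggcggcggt

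Of 15 glucocorticoid-induced genes 3 rose at 150 cGy and 7 at 600 cGy (background 2.77% and 5.51%), with medians of 0.42 and 0.90. Lcn2 and Cebpd, named above, were among them. Ddit4, an inhibitor of mTOR that p53 also induces, rose by 1.03 ± 0.21 [1.25 ± 0.20] and 1.74 ± 0.22 [1.96 ± 0.20]. Fkbp5, a chaperone of the steroid receptor, and the metallothionein Mt1 were at 0.28 ± 0.21 (adjusted p = 0.56) [0.40 ± 0.22, adjusted p = 0.27] and 0.68 ± 0.49 (adjusted p = 0.53) [1.11 ± 0.47, adjusted p = 0.13] at 150 cGy and rose by 0.92 ± 0.22 [1.03 ± 0.23] and 1.90 ± 0.51 [2.33 ± 0.49] at 600 cGy. Tsc22d3 and Per1, both induced early by glucocorticoids, were at 0.25 ± 0.15 [0.25 ± 0.16] and -0.10 ± 0.14 [-0.11 ± 0.15] and did not pass. Among 28 immediate early and stress genes 2 rose at 150 cGy and 6 at 600 cGy, beside the same background. Ier3, an early gene that limits death, rose by 1.49 ± 0.29 [1.88 ± 0.24] and 2.16 ± 0.30 [2.55 ± 0.25]. Dusp2, a phosphatase gene of lymphocytes, changed by -0.88 ± 0.18 [-1.07 ± 0.17] at 600 cGy. Fos and Egr1, the classical early genes, were at -0.04 ± 0.41 [0.00 ± 0.44] and 0.22 ± 0.19 [0.24 ± 0.20] and did not pass. With single mice left out, the call was lost at 600 cGy for Fkbp5 without 600 cGy mouse 4 (largest adjusted p = 0.0528) and Mt1 without 0 cGy mouse 1 or 9 (largest adjusted p = 0.0548).

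Of 20 platelet genes 7 rose at 150 cGy and 1 at 600 cGy (background 2.77% and 5.51%), the latter a share close to the background. Without mouse 10 the counts were 16 and 9 (background 5.77% and 7.98%), and none fell in either fit. The list level was -0.17 to -0.04 in the 0 cGy mice, 0.39 to 1.06 at 150 cGy, 0.41 to 0.65 at 600 cGy and 0.88 in mouse 10. Nrgn, a calmodulin-binding protein gene abundant in platelets, rose by 0.57 ± 0.15 [0.71 ± 0.14] and 0.50 ± 0.16 [0.64 ± 0.15]. Treml1, a receptor of platelet granules, rose by 0.67 ± 0.17 [0.83 ± 0.16] at 150 cGy, with 0.48 ± 0.17 (adjusted p = 0.085) [0.63 ± 0.17, adjusted p = 0.0059] at 600 cGy. Pf4, the platelet chemokine, was at 0.32 ± 0.10 (adjusted p = 0.068) [0.44 ± 0.09, adjusted p = 0.0011] and 0.27 ± 0.11 (adjusted p = 0.13) [0.38 ± 0.10, adjusted p = 0.0049]. Clu and Vwf, which liver and vessel walls also make, were at 0.70 ± 0.24 (adjusted p = 0.095) [0.93 ± 0.23, adjusted p = 0.0044] and 0.98 ± 0.39 (adjusted p = 0.16) [1.38 ± 0.36, adjusted p = 0.0065] at 150 cGy with all mice and did not pass. The test no longer passed at 150 cGy for Nrgn without any 1 of 6 mice (largest adjusted p = 0.086) and Treml1 without 0 cGy mouse 2 or 150 cGy mouse 7 (largest adjusted p = 0.073). The call did not last at 600 cGy for Nrgn without any 1 of 10 mice (largest adjusted p = 0.1).

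Of 30 erythroid genes 2 rose at 150 cGy (Tal1 and Aqp1; background 2.77%), and 1 rose and 3 fell at 600 cGy (background 5.51% and 1.86%), with medians of 0.02 and -0.11. Tal1, a factor of blood stem cells, platelets and red cells, rose by 0.67 ± 0.14 [0.83 ± 0.13] and 0.63 ± 0.15 [0.78 ± 0.14]. Aqp1, the water channel of red cells, rose by 0.70 ± 0.17 [0.82 ± 0.17] at 150 cGy. Rhd, a blood group protein gene, changed by -0.73 ± 0.22 [-0.94 ± 0.20] at 600 cGy. The haem synthesis genes Uros and Alad changed by -0.37 ± 0.11 [-0.47 ± 0.11] and -0.46 ± 0.15 [-0.54 ± 0.15]. Alas2, which starts haem production in red cells, differed by 0.06 ± 0.06 [0.08 ± 0.06] and did not pass. A call was lost at 150 cGy for Aqp1 without 150 cGy mouse 7 (largest adjusted p = 0.061). Leaving out 1 mouse in turn ended the call at 600 cGy for Rhd without any 1 of 7 mice (largest adjusted p = 0.11), Uros without any 1 of 7 mice (largest adjusted p = 0.13) and Alad without any 1 of 10 mice (largest adjusted p = 0.12).

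Of 23 damage signalling and repair genes 2 fell at 150 cGy (background 1.07%), and 1 rose and 1 fell at 600 cGy (background 5.51% and 1.86%). Without mouse 10 6 and 5 fell (background 5.85% and 5.45%). Parp1, which marks strand breaks, changed by -0.47 ± 0.11 [-0.58 ± 0.10] and -0.55 ± 0.11 [-0.66 ± 0.10]. Prkdc, the end-joining kinase, changed by -0.51 ± 0.15 [-0.64 ± 0.14] at 150 cGy. Ercc5, an excision nuclease gene, rose by 0.65 ± 0.20 [0.74 ± 0.20] at 600 cGy. Of 11 BCL2 family genes Bak1, Bcl2l11 and Mcl1, which include killers and a guardian of mitochondria, rose at 600 cGy (background 5.51%). Their differences were 0.49 ± 0.13 [0.55 ± 0.13], 0.57 ± 0.18 [0.64 ± 0.18] and 0.64 ± 0.19 [0.67 ± 0.20]. The chaperone gene Hsph1 changed by -0.58 ± 0.17 [-0.72 ± 0.17] and -0.77 ± 0.18 [-0.91 ± 0.18], and 2 of 13 heat shock genes fell at 150 cGy (background 1.07%). Of 37 cell cycle genes 1 rose and 1 fell at 150 cGy, and 2 and 2 at 600 cGy, where the background was 5.51% and 1.86%. Ccnd3, a cyclin of blood cells, rose by 0.65 ± 0.17 [0.79 ± 0.17] and 0.73 ± 0.18 [0.87 ± 0.17]. The replication helicase gene Mcm7 changed by -0.74 ± 0.19 [-0.91 ± 0.18] at 150 cGy. Of 22 ribosomal protein genes 1 fell at 600 cGy (Rpl12, by -0.85 ± 0.23 [-1.03 ± 0.22]), and of 27 respiratory chain genes none passed by limma with all mice (6 and 4 at an unadjusted p under 0.05). With single mice left out, the call was lost at 150 cGy for Prkdc without any 1 of 7 mice (largest adjusted p = 0.14), Hsph1 without any 1 of 12 mice (largest adjusted p = 0.17) and Ccnd3 without 0 cGy mouse 2, 8 or 9 or 150 cGy mouse 6 or 7 (largest adjusted p = 0.084). The test no longer passed at 150 cGy for Mcm7 without 0 cGy mouse 2 or 150 cGy mouse 7 (largest adjusted p = 0.092). The call did not last at 600 cGy for Ercc5 without any 1 of 7 mice (largest adjusted p = 0.12), Bak1 without 0 cGy mouse 8 (largest adjusted p = 0.0547) and Bcl2l11 without any 1 of 7 mice (largest adjusted p = 0.15). A call was lost at 600 cGy for Mcl1 without 0 cGy mouse 1 or 3 or 600 cGy mouse 4 or 7 (largest adjusted p = 0.095) and Rpl12 without 0 cGy mouse 9 or 600 cGy mouse 1 (largest adjusted p = 0.056).

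Of 23 hepatocyte genes only Hp passed; it encodes haptoglobin, which neutrophils also make, and rose by 1.49 ± 0.28 [1.91 ± 0.21] and 1.87 ± 0.29 [2.29 ± 0.22]. The other 22 did not pass in the fits with and without mouse 10. Alb, the serum albumin gene, was at 0.84 ± 1.31 (adjusted p = 0.82) [1.72 ± 1.32, adjusted p = 0.47] and -0.20 ± 1.37 (adjusted p = 0.96) [0.68 ± 1.37, adjusted p = 0.82] with a span from 5.02 to 13.87 over the 17 mice. With the list level as a covariate 394 genes passed at 150 cGy and 1006 at 600 cGy. The part of these transcripts in other results was otherwise not tested. Of other cells the blood could hold, 1 of 14 eosinophil, basophil and mast cell genes rose and 0 fell at 600 cGy, 0 of 12 endothelial genes rose and 0 fell, and 1 of 15 tissue macrophage genes rose and 0 fell. Of 6 globin genes 0 rose and 1 fell. The background at 600 cGy was 5.51% higher and 1.86% lower, and the rises among these cells were close to it.

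Few genes separated 600 from 150 cGy. With all mice 7 were higher and 1 lower (0.0646% of genes), and without mouse 10 46 and 7 (0.428%). None passed in limma with quantile normalization (959 of 12393 at an unadjusted p under 0.05) or on the 17 untreated arrays alone (979), so every call named here with all mice ended under both. Ngp differed most, by 1.56 ± 0.32 (adjusted p = 0.03). Clec10a, a lectin of myeloid cells, was higher by 1.14 ± 0.22 (adjusted p = 0.03), Fam216a by 1.13 ± 0.21 and Cbr3, a carbonyl reductase gene, by 0.97 ± 0.20. Gyg, the primer of glycogen synthesis, was higher by 0.81 ± 0.17, Gnpda1, an amino sugar isomerase gene, by 0.69 ± 0.13 and Pdlim2, a scaffold protein gene, by 0.61 ± 0.13. Gsta2, a glutathione transferase gene, was lower, by -1.24 ± 0.25 (adjusted p = 0.03), having risen by 0.86 ± 0.24 [0.92 ± 0.25] at 150 cGy. Leaving out 1 mouse in turn ended the call at 150 cGy for Gsta2 without any 1 of 6 mice (largest adjusted p = 0.15). For Clec10a the 0 cGy mice gave log2 levels of 6.06, 6.67, 6.73, 7.16 and 6.59, and mouse 10 gave 7.43. Levels ran from 6.22 through a median of 6.72 to 6.99 at 150 cGy and were 7.55, 8.01, 8.12, 8.02 and 7.37 at 600 cGy. Every 600 cGy mouse exceeded the 0 cGy mice, while the 150 cGy mice overlapped them. With single mice left out, the call was lost between the doses for Ngp without any 1 of 7 mice (largest adjusted p = 0.13), Clec10a without 150 cGy mouse 1, 4 or 7 or 600 cGy mouse 4 or 5 (largest adjusted p = 0.13) and Fam216a without 150 cGy mouse 7 or 600 cGy mouse 4 or 5 (largest adjusted p = 0.13). The test no longer passed between the doses for Cbr3 without any 1 of 7 mice (largest adjusted p = 0.27), Gyg without any 1 of 7 mice (largest adjusted p = 0.15) and Gnpda1 without 150 cGy mouse 1 or 7 or 600 cGy mouse 4 or 5 (largest adjusted p = 0.13). The call did not last between the doses for Pdlim2 without any 1 of 7 mice (largest adjusted p = 0.21) and Gsta2 without 150 cGy mouse 1 or 7 or 600 cGy mouse 4 or 5 (largest adjusted p = 0.15).

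Leaving out single mice moved this count between 0 and 53. It was 0 without 150 cGy mouse 7 or without 600 cGy mouse 4, 1 without 150 cGy mouse 1 or without 600 cGy mouse 5, 3 without 150 cGy mouse 4, 5 without 600 cGy mouse 1, 21 without 150 cGy mouse 5 and 23 without 600 cGy mouse 3. The genes first called without mouse 10 included the p53 targets Cdkn1a, Ei24, Zmat3, Polk and Plk2, the B cell genes Cr2 and Fcer2a, the interferon genes Trim30a, Gbp2 and Ifit3, and Lcn2, Hdc and Acod1. For each of these the estimate was the same in both fits, since mouse 10 is in neither group, and only the pooled error changed. Mouse 10 was set apart with its values known. Leaving out a departing library shrinks the pooled error, so the adjusted p-values between the doses without it may be too low. Fewer genes passed without mouse 10 on the untreated arrays alone or with quantile normalization, as given below. Zmat3, Polk and Plk2 then differed by 0.54 ± 0.12, 0.56 ± 0.13 and 0.55 ± 0.13 between the doses.

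The agents' own irradiated mice allow a test of whether radiation acted otherwise under GCSF or LPS. The difference of the radiation effects, GCSF minus untreated, passed for no gene at 150 cGy by limma (561 of 12393 at an unadjusted p under 0.05, 4.53%) and for 2 higher and 2 lower genes at 600 cGy (0.0323%). Quantile normalization gave 19 higher and 5 lower at 600 cGy. Without mouse 10 it passed for 3 higher and 39 lower genes at 150 cGy (0.339%) and 2 and 21 at 600 cGy (0.186%). Lipg, an endothelial lipase gene, differed most, by 2.74 ± 0.32 (adjusted p = 7.7e-07) [2.56 ± 0.30, adjusted p = 4.2e-07]: its 600 cGy difference was 0.48 ± 0.23 (adjusted p = 0.23) [0.67 ± 0.22, adjusted p = 0.034] untreated and 3.22 ± 0.23 under GCSF. Of 21 neutrophil genes none passed at 150 cGy with all mice (11 at an unadjusted p under 0.05), and 8 were lower without mouse 10 (background 0.315%). One GCSF library, 0 cGy mouse 4, had the lowest array weight of the set (0.111); without it 0 and 5 genes passed at 150 and 600 cGy. The 600 cGy count was also 128 without 0 cGy mouse 2, 109 without 0 cGy mouse 3, 70 without 150 cGy mouse 7, 21 without 600 cGy mouse 1, 16 without 0 cGy mouse 1 and 2 without 0 cGy mouse 8.

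LPS differed more. The difference of effects passed for 2 higher and 14 lower genes at 150 cGy (0.129%) and for 73 and 317 at 600 cGy (3.15%); without mouse 10 the counts were 33 and 84 (0.944%) and 115 and 408 (4.22%). Quantile normalization gave 5 higher and 12 lower at 150 cGy. At 600 cGy 12 of 21 mature neutrophil genes and 7 of 12 granule genes had a smaller rise or a fall under LPS (background 2.56% lower and 0.589% higher), with a median difference of -1.54 for the former. Lcn2 differed by -3.26 ± 0.54 (adjusted p = 6.0e-04) [-3.95 ± 0.29, adjusted p = 1.8e-13]: it rose by 3.39 ± 0.39 [4.08 ± 0.21] untreated and was at 0.13 ± 0.37 (adjusted p = 0.88) under LPS. Its log2 level in LPS mice was already 12.73 to 13.25 at 0 cGy and 13.06 to 13.28 at 600 cGy, both above the untreated 600 cGy span. Foxd4 differed by -2.76 ± 0.50 (adjusted p = 9.3e-04) [-3.29 ± 0.35, adjusted p = 1.5e-08]. Prg2, a granule protein gene of eosinophils, differed by -2.83 ± 0.32 (adjusted p = 2.2e-07) [-2.83 ± 0.33, adjusted p = 7.8e-08] at 600 and -2.77 ± 0.32 (adjusted p = 4.2e-07) [-2.77 ± 0.33, adjusted p = 3.8e-07] at 150 cGy while it was at 0.21 ± 0.23 [0.21 ± 0.24] and 0.02 ± 0.22 [0.03 ± 0.23] in untreated mice; under LPS it ran 5.71 to 8.14 at 0 cGy and 4.06 to 4.77 at 600 cGy.

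Among B cell genes few passed in this difference. Fcer2a differed by 2.19 ± 0.51 (adjusted p = 0.01) [2.75 ± 0.35, adjusted p = 4.1e-07], with -0.45 ± 0.35 (adjusted p = 0.46) at 600 cGy under LPS beside the fall in untreated mice, and Crisp3 by 2.20 ± 0.44 (adjusted p = 0.0027) [2.66 ± 0.32, adjusted p = 1.8e-07], with -0.11 ± 0.30 (adjusted p = 0.86) under LPS. Over the 23 B cell markers 2 were higher and 1 lower in the difference (background 0.589% and 2.56%), with a median of -0.45 beside 0.04 for all genes. Fcer2a levels in LPS mice were 7.07 to 7.45 at 0 cGy, below the untreated 0 cGy mice, and 6.40 to 7.05 at 600 cGy. Of the p53 targets 3 of 38 had a smaller rise under LPS and 0 a larger one (background 2.56% lower and 0.589% higher). Cdkn1a differed by -1.08 ± 0.44 (adjusted p = 0.18) [-1.61 ± 0.26, adjusted p = 3.4e-05]. The 600 cGy count was 244 without 600 cGy mouse 4 and 258 without 0 cGy mouse 8.

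The series holds 2 further experiments with untreated mice at 0 and 600 cGy and 6 hr: a dose-time set with 5 mice a group, of unknown sex, and a sex and treatment set with 5 females and 5 males a dose. Their mice and controls are separate, so the 600 cGy effects can be compared by the difference of differences. The effect in the sex and treatment set was the mean of its female and male differences. The mice described here all had high Xist and low Y-linked signals, and no test was made within a sex. The doses near 150 cGy do not match: the dose-time set has 100 and 200 cGy and the other 200 cGy, and no test was made there. Against the dose-time set 1721 genes had a higher and 1325 a lower 600 cGy difference (24.6%), or 1349 and 1063 without mouse 10 (19.5%). It was 2009 genes in all without 600 cGy mouse 4 and 2014 without 0 cGy mouse 3. Against the sex and treatment set the counts were 40 and 20 (0.484%), or 171 and 73 without mouse 10 (1.97%); quantile normalization and centring on array medians each gave 15 higher and 14 lower.

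B cell genes often had a higher 600 cGy difference, that is a smaller fall or none, in these mice than in the dose-time set. Of 23 B cell genes the difference was higher for 14 and lower for 1 (background 13.9% and 10.7%), and 11 and 2 without mouse 10 (background 10.9% and 8.58%). Ms4a1 was at -1.08 ± 0.42 (adjusted p = 0.12) [-1.60 ± 0.36, adjusted p = 0.0011] here and -4.74 ± 0.53 there, a difference of 3.66 ± 0.73 (adjusted p = 0.0012) [3.14 ± 0.69, adjusted p = 0.0047]. Pou2af1, a coactivator of octamer factors, differed by 4.35 ± 0.80 (adjusted p = 9.0e-04) [3.90 ± 0.79, adjusted p = 0.0033]. Cd79b, a chain of the B cell receptor, differed by 3.35 ± 0.63 (adjusted p = 9.0e-04) [2.74 ± 0.56, adjusted p = 0.0036]. With all mice 7 of 8 MHC class II genes and 10 of 23 T cell genes had a higher difference (background 13.9%). Mouse 10 held the lowest level of the 17 mice in both lists, at -2.41 and -0.99 relative to the median 0 cGy mouse. The counts of these 2 lists without mouse 10 are not given here. Genes whose 600 cGy difference was lower than in the dose-time set included Ccr1, a chemokine receptor, by -1.50 ± 0.45 [-1.23 ± 0.44], Cxcl10 by -1.56 ± 0.54 [-1.66 ± 0.55] and Rag1, the lymphocyte recombinase gene, by -1.57 ± 0.46 [-1.81 ± 0.45]. Rag1 stood at 7.86 in 0 cGy mouse 3 and at 2.87 to 4.41 in 0 cGy mice 1, 2, 8 and 9, and without mouse 3 its difference from that set was -0.81 (adjusted p = 0.013).

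For p53 targets 5 of 38 had a higher and 0 a lower difference here than in the dose-time set (background 13.9% and 10.7%), and 11 and 0 without mouse 10 (background 10.9% and 8.58%). With all mice 0 had a higher difference than in the sex and treatment set by limma (4 at an unadjusted p under 0.05). Cdkn1a rose by 2.89 ± 0.32 [3.42 ± 0.19] at 600 cGy here, by 2.02 ± 0.31 in the dose-time set and by 2.72 ± 0.22 in the sex and treatment set, and with all mice neither difference passed (0.87 ± 0.42 (adjusted p = 0.11) and 0.17 ± 0.37 (adjusted p = 0.79)). Without mouse 10 they were 1.40 ± 0.33 (adjusted p = 0.0056) and 0.70 ± 0.29 (adjusted p = 0.17). At nearby doses it was at 1.97 ± 0.30 [2.50 ± 0.18] at 150 cGy here, 1.56 ± 0.31 at 100 and 1.88 ± 0.31 at 200 cGy in the dose-time set and 2.41 ± 0.22 at 200 cGy in the sex and treatment set. Sesn1, which fell here at 150 cGy, was at -1.87 ± 0.22 and -1.10 ± 0.16 at 600 cGy in those sets.

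Of 21 neutrophil genes 3 had a larger rise here than in the sex and treatment set with all mice (background 0.323%), and without mouse 10 11 (background 1.38%), with median differences of 1.10 and 1.40. Lcn2 rose by 3.39 ± 0.39 [4.08 ± 0.21] here and was at 0.68 ± 0.38 (adjusted p = 0.17) there, a difference of 2.72 ± 0.64 (adjusted p = 0.04) [3.40 ± 0.58, adjusted p = 6.5e-04]; in the dose-time set it rose by 4.11 ± 0.54. Mmp9, a gelatinase of neutrophil granules, differed by 1.84 ± 0.46 (adjusted p = 0.044) [2.21 ± 0.45, adjusted p = 0.003]. Gcnt2, a glycosyltransferase gene, differed by 1.89 ± 0.45 (adjusted p = 0.04) [2.32 ± 0.42, adjusted p = 0.0013]. A second, dim probe set of Gcnt2 was at -0.22 at 600 cGy in these mice. Counts against this set ran from 1 without 600 cGy mouse 3 or 4, through 2 without 0 cGy mouse 8 or 9, 8 without 600 cGy mouse 7, 18 without mouse 1 and 25 without mouse 5 of that dose, to 134 without 0 cGy mouse 3. A call was lost against the sex and treatment set for Lcn2 without any 1 of 6 mice (largest adjusted p = 0.12), Mmp9 without any 1 of 9 mice (largest adjusted p = 0.12) and Gcnt2 without any 1 of 6 mice (largest adjusted p = 0.12).

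**Figure D5:**
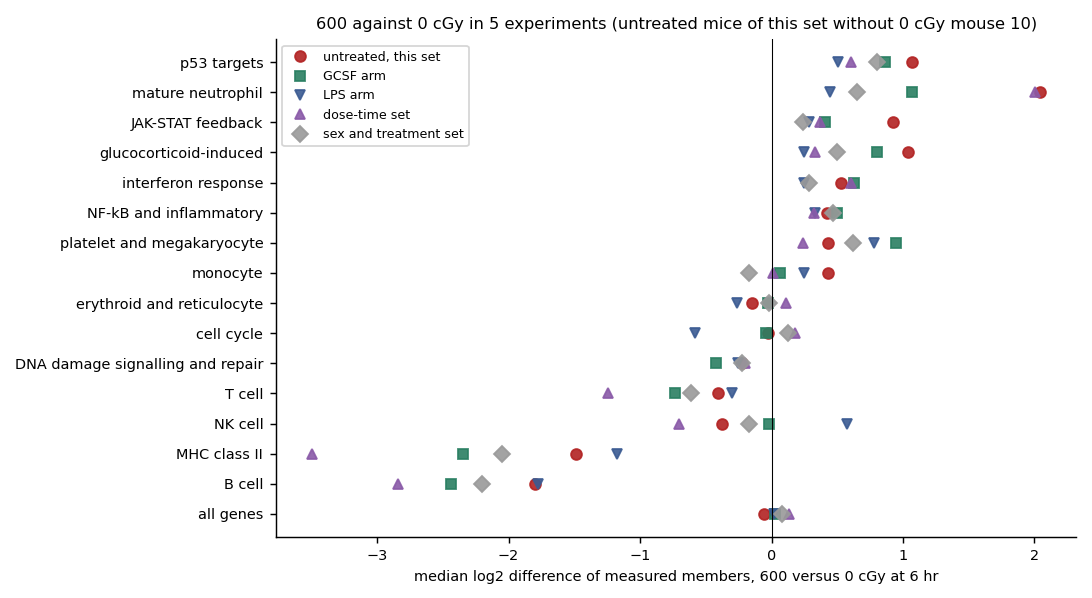
Median log2 difference of 15 gene lists and of all genes between 600 and 0 cGy at 6 hr (x axis) in 5 experiments: the untreated mice described here without 0 cGy mouse 10, the GCSF and LPS arms of the same set, and the untreated mice of the dose-time and the sex and treatment sets. The lists of B cell and MHC class II genes lie left of 0 and that of p53 targets right of 0 in all 5; mature neutrophil medians range from 0.44 under LPS to 2.04 here.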

How the data were processed

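Gene expression in whole blood of mice was measured on Affymetrix arrays. The deposited values are log2 signals that the authors made from the scans by RMA in affy, per the submitters' processing notes; versions, settings and whether the experiments were normalized together are not given in the sources used here. They were used as deposited. Of 22690 probe sets, 64 controls, 1555 without and 691 with several symbols were left out, and each of the 12393 genes was read from 1 probe set, that with the highest mean level where there were several (4956 genes). Among genes named in the text, dimmer probe sets of Gcnt2, Mt1 and Stat3 went the other way at 600 cGy, by -0.22, -0.10 and -0.12.

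limma 3.58.1 in R 4.3.3 (lmFit, eBayes) was fitted to the 50 arrays of the set in 9 groups, with 41 residual degrees of freedom, and p-values were adjusted over all genes by Benjamini-Hochberg. Differences of effects between agents are contrasts of contrasts in that fit, and those between sets come from 97 untreated 6 hr arrays with 78 degrees of freedom. The titles give mice by number and add numbers whose meaning is not given in the sources used here; in the dose-time set 1 of these goes with the mouse number at 6 hr. The labels do not say how mice were kept or arrays run. The p-values therefore measure only the spread between mice, pooled over all arrays of a fit. In the main fit these were the 50 arrays, GCSF and LPS mice included. Tables and figures were made in Python 3.11.15 with numpy 2.4.6, pandas 2.3.3 and matplotlib 3.10.9. Promoter windows are from RefSeq, GRCm38.p6. A test was run on simulated data with 200 genes changed and noise drawn independently for each gene and array. It recovered 90% of genes changed by 1 at 150 cGy and 94% at 600 cGy. Of unchanged genes 0.06% and 0.07% were called. Alternatives covered normalization, centring, probe sets, dim genes, the prior, array weights, the arrays fitted, a replicate block and each mouse left out.

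The mice and the gene lists were chosen with earlier results of these data known, and lists are described by counts and medians with no test of the list. Named by rule were the 10 largest rises and 10 largest falls past the threshold against 0 cGy, the 8 and 8 largest between doses, the 3 and 3 largest in each difference of effects, a fixed set of markers, and in each list the members with the lowest p (up to 5 at 600 cGy, and up to 2 at 150 cGy and between doses) and those against its majority. Aen, Blnk, Ccr2, Cish, Clu, Csf1r, Csf3r, Ctsg, Cx3cr1, Ddb2, Egr1, Elane, Fgl2, Fos, Gadd45a, Il1b, Il6, Irf7, Mpo, Mx2, Per1, Pim2, Rps27l, Rsad2, Sesn1, Stat3, Tnf and Tsc22d3 were named after their values were seen.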

Additional observations from a re-analysis of the deposited data

Results flagged for a closer look

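A value stood apart when its gap to the nearest mouse of its dose group, divided by the range of the group, passed the limit of Dixon's test. This was asked of 528 groups of mice for the genes and lists described, and chance gives about 1 such value in 20 groups. Of the 75 values found, 56 belong to the library labelled 0 cGy mouse 10 and 19 to other mice. In mouse 10 28 genes lay above and 20 below the other 0 cGy mice; the values are log2 levels. Among p53 targets, the values above the other 0 cGy mice were Aen at 7.14, Cdkn1a at 10.47, Ei24 at 9.76, Phlda3 at 9.27, Polk at 8.17, Psrc1 at 8.37 and Zmat3 at 7.41. Among B cell and MHC class II genes, the values below them were Blnk at 7.09, Cd79a at 7.23, Cd79b at 7.26, Ciita at 5.27, Cr2 at 3.94, Fcrl1 at 5.66, H2-Ab1 at 8.87, H2-Oa at 6.67, Ighv14-2 at 5.95, Iglv1 at 7.01, Irf4 at 5.88, Ms4a1 at 8.82, Pou2af1 at 6.94, Tnfrsf13c at 5.59 and Vpreb3 at 4.80. Among genes of neutrophils and monocytes, the values above the other 0 cGy mice were Cxcr2 at 9.23, Fcgr4 at 10.06, Hdc at 9.10, Il1r2 at 10.69, Lcn2 at 12.04, Lrg1 at 12.55, Mmp8 at 11.29 and Trem1 at 7.80. Of the other genes, the values above the other 0 cGy mice were Acod1 at 8.28, Aqp1 at 8.91, Arg2 at 9.62, Asprv1 at 9.05, Cbr3 at 6.73, Foxd4 at 7.75, Hp at 11.99, Ier3 at 8.68, Myd88 at 9.50, Nrgn at 12.94, Oas2 at 9.17, Treml1 at 11.10 and Trim30a at 9.57. The values below them were Ccr7 at 7.70, Cd40 at 6.17, Dusp2 at 7.24, Thy1 at 7.70 and Xist at 11.37. Relative to the median 0 cGy mouse, the list levels of mouse 10 that stood apart were 0.79 for the p53 targets list, -2.47 for the B cell list, -0.51 for the plasma cell list, -2.41 for the MHC class II list, 1.91 for the mature neutrophil list, 0.88 for the platelet and megakaryocyte list, 0.56 for the JAK-STAT feedback list and 1.08 for the glucocorticoid-induced list.

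Other mice gave 19 such values, no more than chance at the rate above could give in the 528 groups. They are listed as log2 levels for genes and relative to the median 0 cGy mouse for lists. In the 0 cGy group they were Cish at 6.73 (low) in mouse 2; Mcl1 at 10.49 (low) and Rag1 at 7.86 (high) in mouse 3. In the 150 cGy group they were Fpr2 at 11.33 (high) and Lcn2 at 11.75 (high) in mouse 6; Gadd45a at 10.04 (low) in mouse 1; Irf9 at 7.57 (low), Itgam at 5.87 (low), Parp1 at 6.58 (low), Vsig4 at 4.37 (low) and Xist at 11.28 (low) and the globin list at 0.78 (high) in mouse 7; Uty at 3.13 (low) in mouse 8. In the 600 cGy group they were Alas2 at 14.26 (low) and Per1 at 6.68 (low) in mouse 7; Cd3e at 9.43 (high) and the glucocorticoid-induced list at 1.25 (high) in mouse 4; Igkv6-14 at 6.86 (high) in mouse 3; the erythroid and reticulocyte list at 0.13 (high) in mouse 1.

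The 600 or 150 cGy effect differed from that of another group of mice for 16 named genes and comparisons, by a limma test of the difference of differences at an adjusted p under 0.05. Under GCSF the effect minus that in untreated mice was 2.74 for Lipg. Under LPS it was -3.26 for Lcn2, -2.76 for Foxd4, -2.83 for Prg2, -2.77 for Prg2 at 150 cGy, 2.19 for Fcer2a and 2.20 for Crisp3. Here minus the dose-time set the 600 cGy effect was 3.66 for Ms4a1, 4.35 for Pou2af1, 3.35 for Cd79b, -1.50 for Ccr1, -1.56 for Cxcl10 and -1.57 for Rag1. Here minus the sex and treatment set it was 2.72 for Lcn2, 1.84 for Mmp9 and 1.89 for Gcnt2. The same differences without mouse 10 stand beside them in the results above.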

How the results depend on the processing

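The counts of genes past an adjusted p of 0.05 in limma were 475 for 150 against 0 cGy, 914 for 600 against 0 cGy, 8 for 600 against 150 cGy, 0 for the GCSF difference at 150 cGy, 4 for the GCSF difference at 600 cGy, 16 for the LPS difference at 150 cGy, 390 for the LPS difference at 600 cGy, 3046 for the dose-time set difference and 60 for the sex and treatment set difference. Quantile normalization, centring, another prior, leaving out dim genes and averaging probe sets kept the counts against 0 cGy within 1.5 times of these. The following counts moved by more; the cause was not tested. With array weights the count was 1039 for 150 against 0 cGy, 2177 for 600 against 0 cGy, 61 for 600 against 150 cGy, 12 for the GCSF difference at 150 cGy, 429 for the GCSF difference at 600 cGy, 73 for the LPS difference at 150 cGy, 834 for the LPS difference at 600 cGy, 5150 for the dose-time set difference and 3279 for the sex and treatment set difference. On the 17 untreated arrays alone the count was 10 for 150 against 0 cGy, 589 for 600 against 0 cGy and 0 for 600 against 150 cGy. Without mouse 10 and with the hepatocyte level as a covariate the count was 1109 for 150 against 0 cGy, 1599 for 600 against 0 cGy and 62 for 600 against 150 cGy. On the untreated arrays without mouse 10 the count was 1272 for 150 against 0 cGy, 1540 for 600 against 0 cGy and 15 for 600 against 150 cGy. Without mouse 10 and with quantile normalization the count was 1462 for 150 against 0 cGy, 1629 for 600 against 0 cGy and 27 for 600 against 150 cGy. Without mouse 10 and with centring on array medians the count was 1372 for 150 against 0 cGy, 1656 for 600 against 0 cGy and 48 for 600 against 150 cGy. Without mouse 10 and GCSF 0 cGy mouse 4 the count was 1744 for 150 against 0 cGy, 1970 for 600 against 0 cGy, 78 for 600 against 150 cGy, 45 for the GCSF difference at 150 cGy, 31 for the GCSF difference at 600 cGy, 178 for the LPS difference at 150 cGy and 691 for the LPS difference at 600 cGy. With quantile normalization the count was 0 for 600 against 150 cGy, 24 for the GCSF difference at 600 cGy and 29 for the sex and treatment set difference. With the hepatocyte level as a covariate the count was 17 for 600 against 150 cGy and 126 for the sex and treatment set difference. Without GCSF 0 cGy mouse 4 the count was 14 for 600 against 150 cGy. With the dimmest 30% of genes left out the count was 67 for the GCSF difference at 600 cGy and 97 for the sex and treatment set difference. With all probe sets of a gene averaged the count was 12 for the GCSF difference at 600 cGy and 141 for the sex and treatment set difference. On only the 0 and 600 cGy arrays of the sets compared the count was 4659 for the dose-time set difference. With centring on array medians the count was 29 for the sex and treatment set difference. With 1 untreated mouse left out in turn, the counts ran from 202 to 1440 for 150 against 0 cGy, 629 to 1664 for 600 against 0 cGy, 0 to 53 for 600 against 150 cGy, 0 to 42 for the GCSF difference at 150 cGy, 2 to 128 for the GCSF difference at 600 cGy, 11 to 117 for the LPS difference at 150 cGy, 244 to 523 for the LPS difference at 600 cGy, 2009 to 3511 for the dose-time set difference and 1 to 244 for the sex and treatment set difference. No named gene changed direction where it passed. The 9 settings that use the hepatocyte level, GCSF mouse 4, title numbers or mouse 10 together with another choice were chosen after seeing the data.

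With the mouse number as a replicate block the count was 1103 for 150 against 0 cGy, 1636 for 600 against 0 cGy, 95 for 600 against 150 cGy, 17 for the GCSF difference at 150 cGy, 21 for the GCSF difference at 600 cGy, 63 for the LPS difference at 150 cGy and 648 for the LPS difference at 600 cGy. The labels do not say whether the numbers pair mice, and 8 pairs are too few to decide it. Over these 8 same-numbered untreated pairs the deviations from the group means correlated with a mean r of 0.0697 (from -0.374 to 0.618). For other pairs the mean r was 0.00412. For the differences between sets, a number in the titles of the dose-time arrays that goes with the mouse number at 6 hr was fitted as a replicate block. The counts were then 3260 for the dose-time set difference and 70 for the sex and treatment set difference, or 2631 and 248 also without mouse 10. Over 5 pairs of 0 and 600 cGy arrays that share it the mean r was 0.0172 (from -0.204 to 0.228).

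Precision is limited by 5 or 6 mice a group and by the library labelled 0 cGy mouse 10. In simulated data with the pooled spread of the 50 arrays, the 600 against 0 cGy test recovered 50% of genes changed by 0.5 on the log2 scale. It recovered 94% of those changed by 1, so smaller changes are often missed. The simulated noise was independent between genes and held no library that departed from its group. Recovery and false calls in the real data can therefore differ from these shares. Dose and any step that followed the array numbers of the titles cannot be told apart.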
